A study of Rattus norvegicus with 6 samples.

Results

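The miR-15/16 family of microRNAs (miRNAs) was followed in small RNA sequencing of rat cardiac fibroblasts and of the vesicles they release. Its members were the rows named rno-miR-15b, rno-miR-16, rno-miR-195 or rno-miR-497 with either arm, 8 of the 728 mature miRNAs listed, from 4 hairpins: rno-miR-15b-5p and rno-miR-15b-3p, rno-miR-16-5p and rno-miR-16-3p, rno-miR-195-5p and rno-miR-195-3p, and rno-miR-497-5p and rno-miR-497-3p. The prefix for rat is left out below. The series held 3 libraries of cardiac fibroblast-derived exosomes, tested here against 3 libraries of the cardiac fibroblasts themselves. Both came from hearts of wistar rats at postnatal day 1 to 2, the labels give no further genotype or treatment, and the cells were grown with 10% serum. For collection of the vesicles the cells spent 48 h in 1% serum depleted of exosomes, and the vesicles were pelleted by ultracentrifugation. The 48 h and the 1% serum are given for the fibroblast libraries too. Exosome libraries are called 1, 2 and unnumbered, since the last column carried no number, and fibroblast libraries 1, 2 and 4. The labels do not say that libraries of a group came from separate cultures, so every p-value reflects spread among these particular libraries, which may be technical.

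MicroRNAs are short RNAs that guide Argonaute proteins to messenger RNAs and repress them. A hairpin precursor gives 2 arms, called 5p and 3p, and pairing to targets rests mostly on the seed, bases 2 to 8. The miR-15/16 family is known for restraining the cell cycle, with cyclins D1 and E1 and the survival factor BCL2 among its known targets. In the mouse heart, miR-195 and its relatives are known to rise after birth, when cardiomyocytes leave the cell cycle.

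The mature sequences, from RefSeq on rat build GRCr8, are shown because the seed defines the family; the seed is in capitals, and all 8 members matched by name.
miR-15b-5p: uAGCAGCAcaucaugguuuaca
miR-16-5p: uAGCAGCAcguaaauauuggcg
miR-195-5p: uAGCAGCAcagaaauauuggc
miR-497-5p: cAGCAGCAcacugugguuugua
miR-15b-3p: cGAAUCAUuauuugcugcucua
miR-16-3p: aCCAAUAUuauugugcugcuu
miR-195-3p: cCAAUAUUggcugugcugcucca
miR-497-3p: cCAAACCAcacugugguguuaga
The 5p arms all share 1 seed, and each of the 3p arms has a seed that no other listed miRNA with a sequence carried. Sequences were found for 655 of the 728 listed miRNAs, and miR-322-5p was the only other one of these with the seed of the 5p arms. Counted from 1 at the 5′ end, miR-16-5p and miR-195-5p differ at 2 of 21 positions, G10A and U11G, so reads with errors there could be counted for the wrong one. miR-15b-5p and miR-16-5p differ at 8 of 22 positions.

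The genes form 2 pairs. Mir15b and Mir16 lie 51 bases apart on chromosome 2, inside Smc4, which encodes a condensin subunit. Mir497 and Mir195 lie 255 bases apart on chromosome 10. The hairpins of Mir16 and Mir195 are printed with both mature arms in capitals, because the balance of the arms is compared further on. Mir16 is at chr2:155555327-155555421 and Mir195 at chr10:55450495-55450581, both on the plus strand of GRCr8.
Mir16: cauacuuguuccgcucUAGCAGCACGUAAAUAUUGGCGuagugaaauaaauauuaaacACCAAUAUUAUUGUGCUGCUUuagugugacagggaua
Mir195: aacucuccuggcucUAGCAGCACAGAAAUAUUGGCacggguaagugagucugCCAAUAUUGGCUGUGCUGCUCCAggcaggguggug

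Depth differed strongly between the groups. Total counts lay between 113129 and 120224 in the exosome libraries and between 2439559 and 12508651 in those of fibroblasts. miR-873-3p alone took 84.9% to 90.1% of the exosome counts and 0.391% to 2.37% of the fibroblast counts, which left 11825 to 18164 other counts in an exosome library. Shares are therefore given without miR-873-3p unless stated. The cells carried their label's markers: 6 mesenchymal miRNAs made up 34.5% to 39.4% of the fibroblast counts, though most of this was miR-143-3p and miR-21-5p. In exosomes these 6 made up 0.754%, 1.10% and 8.66% in libraries 1, 2 and unnumbered. The unnumbered library therefore stood apart, and results that rest on it are also given without it.

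In exosomes, 3 of the 8 members were lower than in fibroblasts, 0 were higher and 5 were not called (edgeR's quasi-likelihood test, Benjamini-Hochberg adjusted p below 0.05 over 698 tested miRNAs). The 3 lower ones, miR-16-5p, miR-195-5p and miR-15b-5p, are 5p arms that share the seed. The other member with that seed, miR-497-5p, was not called (log2 fold change 0.14, edgeR adjusted p = 0.90). Over all tested miRNAs, 18.6% were called lower and 11.3% higher. All 8 members passed the filter on low counts, miR-195-5p only through its fibroblast reads and miR-497-3p only through its exosome reads. With 1 exosome count in all, miR-195-5p was thus tested only because of the group where it is high. The members' median log2 fold change was -1.04, against -0.15 over everything tested. In such bulk samples, fewer vesicles that carry a miRNA and less of it per vesicle cannot be told apart.

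miR-16-5p, the most abundant member and the arm most studied for repression of cyclins, had 7, 17 and 36 counts in exosome libraries 1, 2 and unnumbered, against 51948, 79409 and 10173 counts in fibroblast libraries 1, 2 and 4. These were 0.0385%, 0.119% and 0.304% of counts in exosomes, against 0.825%, 0.637% and 0.427% in fibroblasts. The groups did not overlap, and the highest exosome value was in the unnumbered library. miR-16-5p was the only member lower without overlap on this scale, which held for 8.65% of all listed miRNAs. Among all listed miRNAs it ranked 380th, 162nd and 46th in exosome libraries 1, 2 and unnumbered and 19th, 20th and 29th in fibroblast libraries 1, 2 and 4.

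By the fit the log2 fold change of miR-16-5p was -4.33 (SE 1.17), or 20.1-fold lower in exosomes (edgeR adjusted p = 0.0016; 1.7e-10 to 0.045 over the alternatives). Without the unnumbered exosome library the log2 fold change was -6.07. At the mean fibroblast share of counts other than miR-873-3p, exosome libraries 1, 2 and unnumbered would have held 114, 90.3 and 74.5 counts, and at the mean share of all counts 748, 704 and 740. Over summed counts other than miR-873-3p, the exosome share was 0.202 times the fibroblast share (95% Clopper-Pearson interval 0.154 to 0.260), and 0.110 times without the unnumbered library (0.0707 to 0.164). Intervals and limits for counts of 0 cover counting error alone, because amplified reads are not separate molecules.

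The summed share of the mesenchymal markers was highest in the unnumbered exosome library, as was the share of miR-16-5p. All 6 were called lower in exosomes, against 18.6% of all tested miRNAs, but these markers were chosen with earlier results of these data known. In exosome libraries 1, 2 and unnumbered, miR-143-3p had 15, 72 and 646 counts, miR-21-5p 76, 59 and 285, and miR-199a-3p 9, 9 and 78. miR-199a-5p went the other way, with 30, 11 and 7 counts. miR-214-3p (4, 3 and 5 counts) and miR-145-5p (3, 4 and 3 counts) were scarce in all of them. The part of these markers in the result was not tested. The 3 miRNAs outside the family with the profile nearest to miR-16-5p over the 6 libraries were miR-125a-5p, miR-125b-5p and miR-191a-5p. Their root mean square differences from it were 0.30, 0.33 and 0.39 in centred log2 CPM (CPM are counts scaled to library sizes adjusted by TMM), with Pearson's r of 0.99 for each. These likenesses rest on 6 libraries in 2 separate groups and on shared depth, and are a description.

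miR-15b-5p, encoded beside miR-16, had 1, 2 and 3 counts in exosome libraries 1, 2 and unnumbered, against 980, 2071 and 205 counts in fibroblast libraries 1, 2 and 4. Its log2 fold change was -2.56 (SE 0.78), 5.91-fold lower in exosomes (edgeR adjusted p = 0.0051; 0.00027 to 0.48 over the alternatives). This call rested on the scaling and on few reads. Of counts other than miR-873-3p it held 0.00551%, 0.0139% and 0.0254% in exosomes, against 0.0156%, 0.0166% and 0.00861% in fibroblasts, and these ranges overlapped. At the mean fibroblast share 2.47, 1.95 and 1.61 counts would have been seen in exosome libraries 1, 2 and unnumbered. On that scale the summed ratio was 0.879 (95% interval 0.322 to 1.91), an interval that holds 1, and 0.599 without the unnumbered library (0.124 to 1.75). Without exosome library 1 the edgeR adjusted p was 0.10, without fibroblast library 1 it was 0.059, and without the unnumbered exosome library the log2 fold change was -3.53. With library sizes that omit the 5 most abundant miRNAs the log2 fold change was -0.93 (edgeR adjusted p = 0.48).

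miR-195-5p, the member best known from the postnatal heart, had 1, 0 and 0 counts in exosome libraries 1, 2 and unnumbered, against 304, 943 and 34 counts in fibroblast libraries 1, 2 and 4. It was called lower with a log2 fold change of -3.60 (SE 1.30, edgeR adjusted p = 0.021; 0.0055 to 0.35 over the alternatives). With 1 exosome count in all, its summed level was 0.0756 times that of fibroblasts on TMM-scaled library sizes (95% interval 0.00191 to 0.422). Of counts other than miR-873-3p the ratio was 0.372 (95% interval 0.00942 to 2.08), an interval that holds 1. In fibroblasts it was also scarce, at 0.00461% ± 0.00308 (SD, n = 3). A count of 0 in exosome library 2 and the unnumbered library allows a share of up to 0.0257% and 0.0312% (95% Clopper-Pearson limits), above all 3 fibroblast values. The call was lost without exosome library 2 (edgeR adjusted p = 0.093) and with total counts (0.093), and with miR-873-3p left out of the table the adjusted p was 0.051.

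miR-497-5p, transcribed with miR-195, had 9, 8 and 3 counts in exosome libraries 1, 2 and unnumbered, against 479, 1408 and 48 counts in fibroblast libraries 1, 2 and 4. Its log2 fold change was 0.14 (SE 0.64, edgeR adjusted p = 0.90), and its sign changed with the scaling, to -0.28 with total counts. It held 0.0495%, 0.0558% and 0.0254% of counts other than miR-873-3p in exosomes, against 0.00761%, 0.0113% and 0.00202% in fibroblasts. The exosome values were all higher on that scale, as they were for 48.2% of all listed miRNAs.

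**Figure D1:**
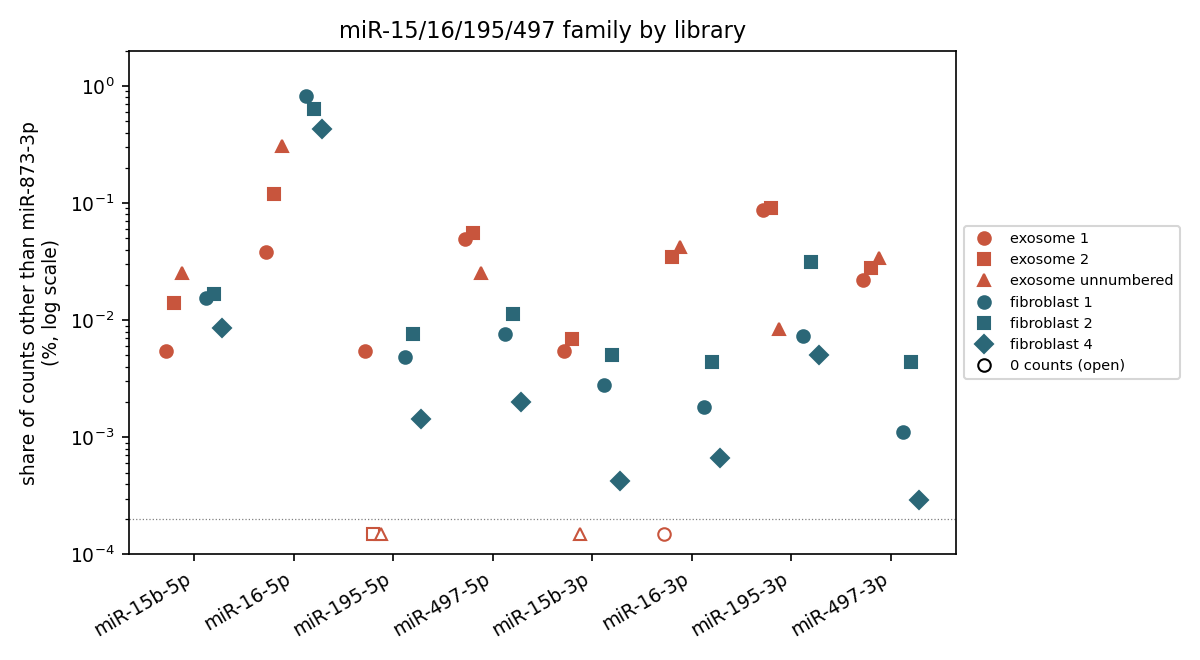
Share of each member in the counts other than miR-873-3p, in percent on a log axis, for the 3 exosome libraries (red, left of each pair) and the 3 fibroblast libraries (blue); each point is 1 library, and open symbols below the dotted line are libraries with 0 counts. miR-16-5p lies between 0.0385% and 0.304% in exosomes and between 0.427% and 0.825% in fibroblasts. miR-497-5p and miR-497-3p lie higher in exosomes without overlap, as do 48.2% of all listed miRNAs.

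The 3p arms, which do not carry the family seed and are usually called passenger strands, were scarce in both groups and none was called. miR-195-3p had 16, 13 and 1 counts in exosome libraries 1, 2 and unnumbered, against 458, 3917 and 120 counts in fibroblast libraries 1, 2 and 4. Its log2 fold change was -0.29 (SE 0.62, edgeR adjusted p = 0.78), and the groups overlapped. Its sign also turned with scaling, to 1.08 with library sizes that omit the 5 most abundant miRNAs.

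miR-497-3p had 4 counts in each exosome library and 70, 549 and 7 counts in fibroblast libraries 1, 2 and 4. Its log2 fold change was 1.62 (SE 0.86, edgeR adjusted p = 0.15; 0.047 to 0.79 over the alternatives). It held 0.0220%, 0.0279% and 0.0338% of counts other than miR-873-3p in exosome libraries 1, 2 and unnumbered. In fibroblast libraries 1, 2 and 4 it held 0.00111%, 0.00441% and 0.000294%. All exosome values were higher on that scale, as they were for 48.2% of all listed miRNAs. miR-16-3p had 0, 5 and 5 counts in exosome libraries 1, 2 and unnumbered, against 114, 545 and 16 counts in fibroblast libraries 1, 2 and 4. Its log2 fold change was 1.13 (SE 0.87, edgeR adjusted p = 0.36). Of counts other than miR-873-3p its summed ratio was 7.06 (95% interval 3.37 to 13.1), and 4.82 without the unnumbered library (1.56 to 11.3). miR-15b-3p had 1, 1 and 0 counts in the same exosome libraries, against 177, 627 and 10 counts in fibroblasts, with a log2 fold change of -1.79 (SE 1.24, edgeR adjusted p = 0.30). Since it held 2 exosome counts in all, its summed ratio to fibroblasts is given on both scales. It was 0.238 on TMM-scaled sizes (95% interval 0.0288 to 0.863) and 1.17 of counts other than miR-873-3p (95% interval 0.142 to 4.25), so its direction depended on the scale.

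**Figure D2:**
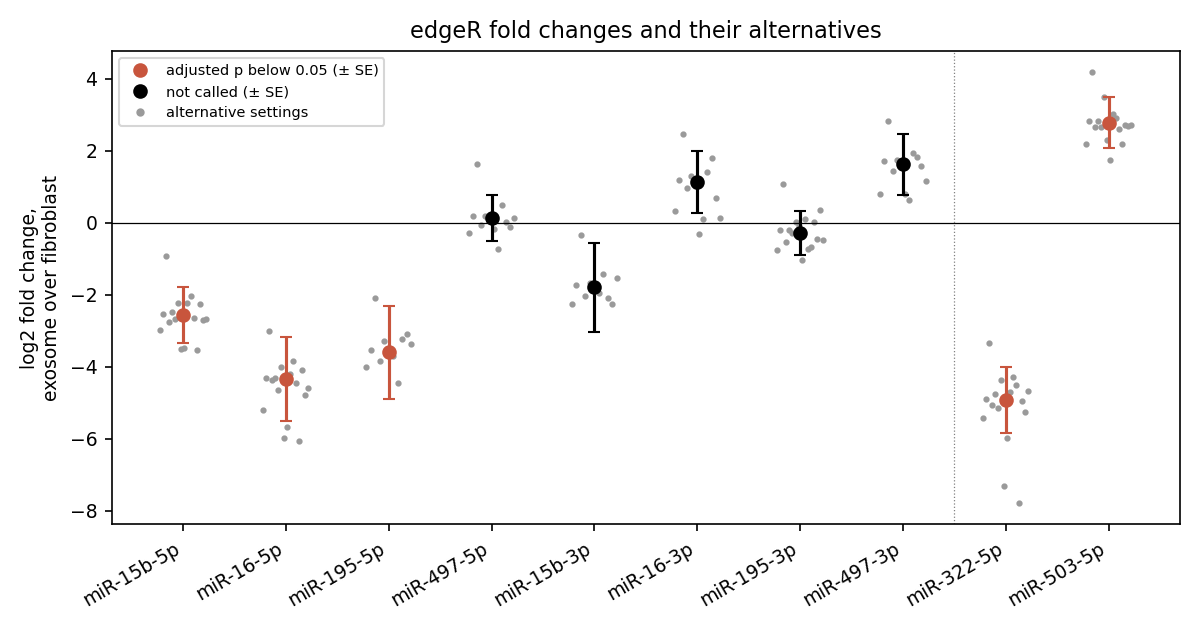
Log2 fold change, exosome over fibroblast, of the 8 members and, right of the dotted line, miR-322-5p and miR-503-5p; large points are the edgeR estimates ± SE, red where the adjusted p is below 0.05, and small grey points are the alternative settings. miR-16-5p stays between -6.07 and -3.01 in all settings, whereas miR-497-5p and miR-195-3p lie on both sides of 0; 1 alternative of miR-195-5p with 0 counts in every exosome library is not drawn.

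The make-up of the family is free of any scaling between libraries, since each member is set against the family's own reads. The family held 39, 50 and 52 counts in exosome libraries 1, 2 and unnumbered, against 54530, 89469 and 10613 counts in fibroblast libraries 1, 2 and 4. miR-16-5p made up 17.9%, 34.0% and 69.2% of them in exosomes, against 95.3%, 88.8% and 95.9% in fibroblasts. The 95% Clopper-Pearson intervals of the exosome shares reached from 7.54 to 33.5, from 21.2 to 48.8 and from 54.9 to 81.3, all below the fibroblast shares. The 3 exosome libraries also differed among themselves, with the unnumbered one nearest to the fibroblasts.

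The 5p arms together made up 46.2%, 54.0% and 80.8% of the family's reads in exosome libraries 1, 2 and unnumbered, against 98.5%, 93.7% and 98.6% in fibroblast libraries 1, 2 and 4; the rest were 3p arms. In exosome library 1 the member with most reads was miR-195-3p, with 41.0% of the family. As a whole the family held 0.334% ± 0.113 of the counts other than miR-873-3p in exosomes and 0.677% ± 0.213 in fibroblasts (SD, n = 3 each). Exosome values of 0.215%, 0.349% and 0.440% stood against fibroblast values of 0.866%, 0.718% and 0.446%, with a gap of only 0.440% to 0.446% between the groups.

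**Figure D3:**
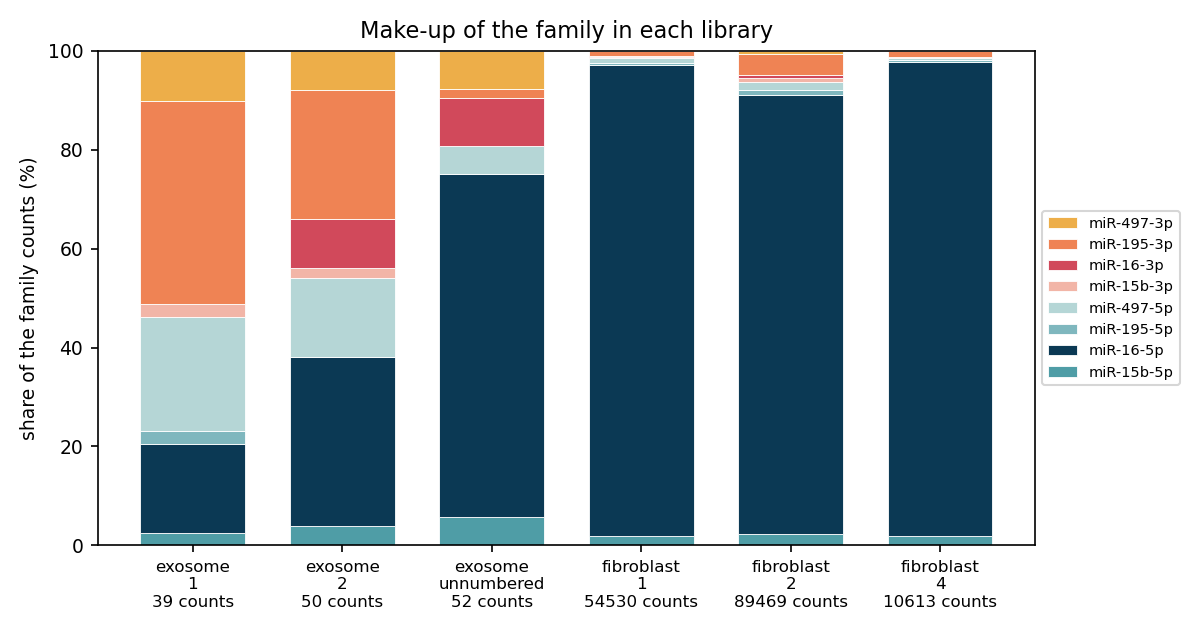
Make-up of the family in each library as stacked shares of the family's own counts in percent, exosome libraries left and fibroblast libraries right, with the family's count under each bar; blue shades are 5p arms and warm shades 3p arms. miR-16-5p fills 17.9% to 69.2% of the exosome bars, which rest on 39 to 52 counts, and 88.8% to 95.9% of the fibroblast bars.

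Ordered by mean share, the members in exosomes ran from miR-16-5p (0.154% ± 0.136) through miR-195-3p (0.0624% ± 0.0467), miR-497-5p (0.0436% ± 0.0161), miR-497-3p (0.0279% ± 0.00590), miR-16-3p, miR-15b-5p and miR-15b-3p to miR-195-5p (0.00184% ± 0.00318; SD, n = 3). The ranges of all neighbours in that order overlapped. In fibroblasts the order ran from miR-16-5p (0.630% ± 0.199) through miR-195-3p (0.0146% ± 0.0146), miR-15b-5p (0.0136% ± 0.00435), miR-497-5p (0.00697% ± 0.00467), miR-195-5p, miR-15b-3p and miR-16-3p to miR-497-3p (0.00194% ± 0.00218; SD, n = 3). There, miR-16-5p alone was separate from its neighbour. Levels are counts of reads assigned to mature miRNAs of 21 to 23 bases and were not divided by length.

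The balance of the 2 arms was compared within each hairpin. For miR-16 there were 7, 17 and 36 reads of the 5p arm beside 0, 5 and 5 reads of the 3p arm in exosome libraries 1, 2 and unnumbered. In fibroblast libraries 1, 2 and 4 there were 456, 146 and 636 reads of the 5p arm for each read of the 3p arm. On the log2 scale with 0.5 added to each count, the 5p to 3p ratio averaged 2.77 ± 1.12 in exosomes and 8.43 ± 1.10 in fibroblasts (SD, n = 3 each). The value of exosome library 1, 3.91, comes from the 0.5 added to 0 reads of the 3p arm, so that library does not itself show a shift. The groups did not overlap (two-sided exact permutation test, p = 0.1, the lowest value possible with 3 libraries against 3, and 0.13 adjusted over the 8 ratios compared). However, 7, 17 and 36 reads of the 5p arm could not reach the lowest fibroblast value, 7.19, even beside 0 reads of the 3p arm. The lack of overlap and this p-value were thus fixed by exosome depth, and nothing is concluded from them. Even at the lowest fibroblast ratio, the 60 exosome reads of the 5p arm would go with 0.412 reads of the 3p arm, where 10 were found.

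In the fit over the 248 hairpins with both arms tested, miR-16 was the 1 family hairpin called, with a log2 fold change of the 5p arm 5.46 below that of the 3p arm (difference -5.46, edgeR's diffSpliceDGE adjusted p = 3.6e-06; 2.0e-06 to 0.00042 over the alternatives). A changed balance was called for 33.5% of all these hairpins, 43 with the 5p arm lower relative to the 3p arm and 40 with it higher.

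The other hairpins were not called. For miR-195 the 3p arm outnumbered the 5p arm in every library. In exosome libraries 1, 2 and unnumbered, 1, 0 and 0 reads of the 5p arm stood beside 16, 13 and 1 reads of the 3p arm. In fibroblast libraries 1, 2 and 4 there were 0.664, 0.241 and 0.283 reads of the 5p arm for each read of the 3p arm. The difference was -3.31 on the log2 scale (diffSpliceDGE adjusted p = 0.067), with adjusted p of 0.11 without exosome library 1, 0.30 without exosome library 2, 0.049 without the unnumbered library and 0.19 with total counts. For miR-497 there were 2.25, 2.00 and 0.750 reads of the 5p arm for each read of the 3p arm in exosomes, against 6.84, 2.56 and 6.86 in fibroblasts, without overlap (difference -1.48, diffSpliceDGE adjusted p = 0.31). miR-15b had overlapping groups and a difference of -0.77 (diffSpliceDGE adjusted p = 0.71).

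**Figure D4:**
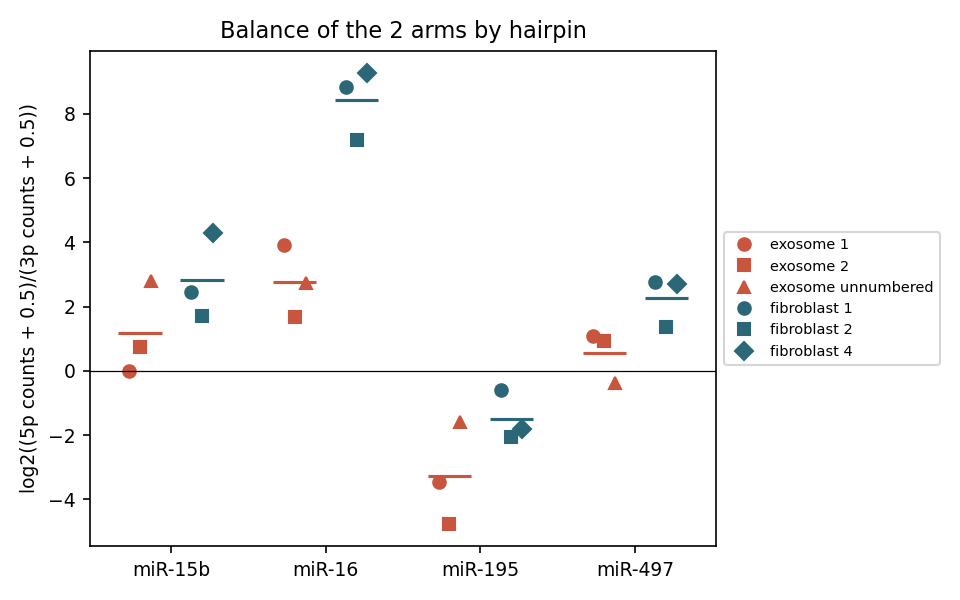
Log2 ratio of 5p to 3p counts, with 0.5 added to each, for the 4 hairpins in the exosome (red, left of each pair) and fibroblast libraries (blue); points are libraries and short lines are means of 3. The miR-16 values average 2.77 in exosomes and 8.43 in fibroblasts, and miR-195 lies below 0 in all 6 libraries. For miR-16, exosome library 1 had 0 reads of the 3p arm, and low exosome depth alone kept the groups apart.

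The 5p arms were also set against each other. For each read of miR-16-5p there were 0.143, 0.118 and 0.0833 reads of miR-15b-5p in exosome libraries 1, 2 and unnumbered, against 0.0189, 0.0261 and 0.0202 in fibroblast libraries 1, 2 and 4. The log2 ratio averaged -2.84 ± 0.53 in exosomes and -5.54 ± 0.25 in fibroblasts (SD, n = 3 each), without overlap (exact two-sided permutation p = 0.1, adjusted 0.13). The exosome values rest on 1, 2 and 3 reads of miR-15b-5p. In exosome libraries 1 and 2, even 0 reads with 0.5 added would have given ratios above all fibroblast values. Their separation was thus fixed by depth. For each read of miR-16-5p there were 1.29, 0.471 and 0.0833 reads of miR-497-5p in exosomes and 0.00922, 0.0177 and 0.00472 in fibroblasts, a difference of 5.40 in mean log2 ratio (exact permutation p = 0.1, adjusted 0.13). Here too, depth fixed the separation of exosome libraries 1 and 2.

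miR-497-5p and miR-195-5p, from 1 cluster, were also compared. In exosome libraries 1, 2 and unnumbered, 9, 8 and 3 reads of miR-497-5p stood beside 1, 0 and 0 reads of miR-195-5p. In fibroblast libraries 1, 2 and 4 there were 1.58, 1.49 and 1.41 reads of miR-497-5p for each read of miR-195-5p, a narrow range. The log2 ratio, 3.19 ± 0.78 in exosomes and 0.57 ± 0.08 in fibroblasts (SD, n = 3 each), did not overlap (exact permutation p = 0.1, adjusted 0.13), and in exosomes it depends on the 0.5 added to counts of 0.

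The related cluster on the X chromosome holds miR-322, with the same seed, and miR-503, whose seed differs in its last base. They are shown for that comparison.
miR-322-5p: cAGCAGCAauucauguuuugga
miR-503-5p: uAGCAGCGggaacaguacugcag
miR-322-5p had 1, 0 and 5 counts in exosome libraries 1, 2 and unnumbered, against 4299, 8426 and 1984 counts in fibroblast libraries 1, 2 and 4, and was lower by the fit (log2 fold change -4.93, SE 0.92, edgeR adjusted p = 4.1e-06). Of its 6 exosome counts 5 were in the unnumbered library, without which the log2 fold change was -7.78, fitted to 1 exosome count. Its share of counts other than miR-873-3p was lower in exosomes without overlap, which held for 8.65% of all listed miRNAs. miR-503-5p had 67, 55 and 52 counts in the same exosome libraries, against 568, 1998 and 183 counts in fibroblasts, and was higher (log2 fold change 2.78, SE 0.71, edgeR adjusted p = 0.00078). Without the unnumbered library its log2 fold change was 2.18.

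Other miRNAs that act on cell growth were read from lists chosen with earlier results of these data known. Of 19 growth-restraining miRNAs tested, which include miR-322-5p and miR-503-5p but no member, 17 were lower in exosomes, against 18.6% of all tested miRNAs. Given that choice, and the many related let-7 miRNAs in the list, these counts are a description and no test of growth-restraining miRNAs. miR-503-5p was higher and miR-449a-5p was not called, and the list's median was -4.38 (log2). By CPM, summed over the means of both groups, let-7f-5p (log2 -4.77, SE 1.59), miR-26a-5p (log2 -4.54, SE 1.48) and let-7c-5p (log2 -4.38, SE 1.39) led this list. Of 13 growth-promoting miRNAs, 6 were lower, 7 missed the threshold and 0 were higher; the list's median was -1.99 (log2). The leading ones by the same measure were miR-21-5p (log2 -5.23, SE 1.86), miR-92a-3p (log2 -1.99, SE 0.88, not called with edgeR adjusted p = 0.072) and miR-25-3p (log2 -2.31, SE 0.83). miR-21-5p and, from the restraining list, miR-145-5p are also among the 6 mesenchymal miRNAs above.

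Blood miRNAs are of interest beside miR-16-5p, which is abundant in red cells together with miR-451. The 6 listed blood miRNAs held 0.143%, 0.181% and 0.228% of counts other than miR-873-3p in exosome libraries 1, 2 and unnumbered, against 0.0313%, 0.0313% and 0.00617% in fibroblast libraries 1, 2 and 4. Among them 1, miR-451-5p, was called higher in exosomes, with 3, 10 and 11 counts against 112, 356 and 9 counts in fibroblasts, and 5 were not called. miR-144-5p was at 0 in exosome libraries 1 and 2, and miR-142-3p at 0 in the unnumbered library. The 5 cardiomyocyte miRNAs held 0.0254% to 0.0628% in exosomes and 0.00743% to 0.0149% in fibroblasts, and 1 of the 4 tested, miR-499-5p, was called lower (log2 -3.78, edgeR adjusted p = 0.011). The other 3 tested were not called, miR-133a-3p at -0.73, miR-208a-3p at 0.38 and miR-208b-3p at 0.68 (log2), and each of the 5 was at 0 in at least 1 exosome library. The 2 endothelial miRNAs held 0.639% to 0.973% in exosomes and 0.0101% to 0.0156% in fibroblasts. Most of this in exosomes was miR-126a-3p, with 113, 91 and 98 counts in libraries 1, 2 and unnumbered, which was called higher (log2 4.85), while miR-126a-5p was not called (log2 0.30, edgeR adjusted p = 0.78). The 5 epithelial miRNAs held 0.0907% to 0.231% in exosomes and 0.0107% to 0.0262% in fibroblasts. All these shares are of counts other than miR-873-3p, a scale on which 48.2% of all listed miRNAs were higher in exosomes without overlap. By the fit, 11.3% of all tested miRNAs were called higher. The part of any of these cell types in the values of the family was not tested.

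Calls over all miRNAs depended on how libraries were scaled. With TMM, 37.8% of the calls were higher in exosomes, against 26.2% with total counts, 75.5% with library sizes that omit the 5 most abundant miRNAs and 15.2% when reads outside the listed miRNAs were added to the library sizes. The median over all miRNAs tested was -0.15 with TMM and -0.57, 1.34 and -0.96 under the other settings (log2). Relative to that median, miR-16-5p stood at -4.18 with TMM and at -4.62, -4.34 and -4.71 under the other settings in the same order. In this order of settings miR-15b-5p stood at -2.41, -2.41, -2.27 and -2.52 and miR-195-5p at -3.45, -3.43, -3.43 and -3.49. A change of scaling shifts all log2 fold changes by similar amounts. Distances to the median were therefore bound to stay close, and they do not show that the calls hold. Across these settings the edgeR adjusted p ran from 0.00027 to 0.48 for miR-15b-5p and from 0.0055 to 0.35 for miR-195-5p.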

How the data were processed

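All main tests used the deposited count table, whole numbers of reads for each mature miRNA. Another deposited table gives normalized signal, which its values show to be reads over 1 factor per library; the reads behind it were 99.3% to 99.8% of the counts. A deposited comparison by the authors gives mean signal, a fold change (ratio), its log2 value and p-values, per the file headers. The submitters' processing notes list CASAVA 1.8.2, cutadapt 1.2.1, DESeq and build rn5; no source used here names the aligner, the counting rule or the miRNA release. The row named rest, 63.1% to 84.4% of reads, was left out of tests.

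Counts were tested with edgeR 4.0.16 (R 4.3.3): filterByExpr (minimum count 10, minimum total 15; 7.81 CPM), TMM, quasi-likelihood, two-sided, threshold 0.05. The SE is the log2 fold change over the square root of F. Arm balance used diffSpliceDGE, ratios exact permutation tests. The fit was tested on simulated data. Alternatives included DESeq2 1.42.0. Named miRNAs were all members, seed sharers, the miR-322/503 pair, the 3 profiles nearest to miR-16-5p and 3 per growth list by mean CPM; members and lists were chosen with earlier results of these data known. miR-451-5p, miR-191a-5p and other miRNAs outside these were named as markers or as nearest profiles.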

Additional observations from a re-analysis of the deposited data

How the results depend on the processing

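Exosome depth is the main limit: 7 of the 8 members rest on 30 or fewer exosome counts. miR-16-5p and its arm balance kept direction and call in all settings run for them. The 8 count ratios kept direction, and their exact tests could not reach 0.05. For the ratios with miR-16-5p, low exosome depth by itself favoured that direction. Left out of the library size, the 5 most abundant miRNAs gave 1 member lower and 1 higher, 60 miRNAs lower and 185 higher, miR-15b-5p at -0.93 and miR-195-5p at -2.10 (not called), miR-497-3p at 2.84 (called) and miR-195-3p at 1.08. Total counts gave 43 miRNAs higher, miR-195-5p at -4.00 (not called) and miR-497-5p at -0.28. Reads outside the listed miRNAs in the library size, a setting chosen after seeing the data, gave 35 higher, miR-497-5p at -0.73 and miR-503-3p at -0.19. Leaving out miR-873-3p, also chosen later, gave miR-195-5p at -3.23 (not called) and miR-195-3p at 0.10. No filter gave miR-497-5p at -0.065, thinning miR-195-3p at 0.030. The cause was not tested. Summed ratios without the unnumbered library were also added after seeing the data.

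With the replicate block (numbers 1 and 2, which the labels do not say mark a shared culture; deviations correlated at -0.07 and 0.16) 2 hairpins were called, miR-195 among them at -3.60, and miR-16-3p was at -0.31 and miR-497-5p at -0.18. Leaving out each library gave 1 to 3 members lower, 0 higher, 86 to 139 miRNAs lower, 46 to 78 higher and 1 to 2 hairpins. Log2 fold changes ranged from -3.53 to -2.04 for miR-15b-5p, -10.85 to -3.09 for miR-195-5p, -0.71 to 0.36 for miR-195-3p and -0.11 to 0.14 for miR-497-5p, and arm differences from -10.13 to -2.43 for miR-195 and -2.01 to 0.033 for miR-15b. The 2 most extreme values, -10.85 and -10.13, are fits to 0 exosome counts and no bound. Reversed signs were -0.11 (miR-497-5p without exosome library 2), 0.03 (miR-195-3p without the unnumbered exosome library), 0.36 (the same arm without fibroblast library 2) and 0.033 (arms of miR-15b without exosome library 1). Without a fibroblast library or with thinning, 3 members passed the filter and no family hairpin could be fitted.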

Other observations

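In the authors' deposited table, whose log2 values run fibroblast over exosome, miR-16-5p had 4.25 with an adjusted p of 0.0015. That table's adjusted p was 0.39 for miR-15b-5p (log2 2.09) and 0.73 for miR-195-5p (log2 4.03), so in the authors' deposited table neither passed 0.05. The other 5 members had an adjusted p of 1 there, with log2 values from -1.95 for miR-497-3p to 2.00 for miR-15b-3p.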
